A study of Saccharomyces cerevisiae with 6 samples.

Results

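The data describe nucleosome DNA of the 18S ribosomal RNA gene of Saccharomyces cerevisiae, carried one fragment at a time in a small circular minichromosome. Members were the fragments of the deposited count lists on chromosome XII whose midpoint lies in RDN18-1 (chrXII:455933-457732) or RDN18-2 (chrXII:465070-466869, genome build R64, minus strand) and that had at least 10 reads, summed over 2 sequencing runs, in gel section A and in gel section B. Of 9642 listed fragments centred in the gene, 542 met this rule (279 in the first copy and 263 in the second), out of 9277 in the whole series. The copies of the gene have the same sequence over all 1800 bases, so that a read cannot be placed in one or the other, and the fragments were folded onto one gene coordinate, counted from the first base of the RNA. This gave 301 distinct fragments, 241 of them with both copies past the minimum, among 9036 fragments tested in the series. A fragment is named below by its first and last base of the 18S RNA, so that 338–437 is a fragment of 100 bp.

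The DNA came from FY251 cells, which are MATa and carry the alleles ura3-52, trp1-∆63, leu2-D1 and his3-∆200, grown in rich medium and digested with micrococcal nuclease. Mono-nucleosome fragments were inserted between a positioned nucleosome and the centromere of the YCp1.3 minichromosome, transformed into FY251, and recovered from pooled colonies selected for growth without tryptophan. NucLib is this pool before the gel, Topo-seq-A is the DNA eluted from the part of the topoisomer smear above its mean position, and Topo-seq-B is the DNA from the part below it. The 3 DNA samples were each sequenced in 2 runs and the gel was run once, so p-values measure only the spread between runs of the same DNA, and not the spread between cultures, transformations or gels. As a check of the strain, no listed fragment lay within HIS3 or TRP1, whose alleles the genotype writes with ∆. LEU2, whose allele is written leu2-D1, held 50 listed fragments and URA3 held 39, of which 1 in each passed the minimum of reads. What leu2-D1 removes is not stated.

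As background, DNA wrapped around a histone octamer loses linking number, the number of times that the strands of a closed circle wind around each other. The loss that a nucleosome restrains, ∆Lk, stays in the minichromosome DNA after its proteins are removed and sets how fast the circle runs in a gel. A circle whose insert restrains a more negative ∆Lk is found more often in section B, and one with a less negative ∆Lk in section A, with the length of the insert also changing migration. The 18S gene encodes the RNA of the small ribosomal subunit. It lies, with the genes of the 5.8S and 25S RNAs, in units repeated in tandem that RNA polymerase I transcribes in the nucleolus, and in growing yeast some units are transcribed heavily and carry few nucleosomes while others are silent and nucleosomal. The reference genome holds 2 of these units.

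The sequences that carry the results are printed 5′ to 3′ in the sense of the 18S RNA, as DNA, from the RefSeq copy of the R64 genome. Capitals mark every AA, TT and TA step, the dinucleotides known to recur where the minor groove of nucleosomal DNA faces the histones. Coordinates are those of the first gene copy, on the minus strand. The first sequence is the most abundant fragment. The next is the lowest A/B ratio among the 93 fragments that had 100 reads or more in both sections (the deeper fragments), and then come the fragment with the lowest ∆Lk of all members and 1400–1551, the fragment with most section A reads after 338–437. These are followed by the lowest and the highest ∆Lk among the deeper fragments, a pair that ends at the same base, and by another of the 4 lowest and another of the 4 highest, both of lengths with enough fragments to be compared. The second and the third sequence were chosen after their values had been seen.
338–437, chrXII:457296-457395: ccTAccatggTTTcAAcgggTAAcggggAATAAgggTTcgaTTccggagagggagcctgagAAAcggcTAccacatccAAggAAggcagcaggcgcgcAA
1262–1371, chrXII:456362-456471: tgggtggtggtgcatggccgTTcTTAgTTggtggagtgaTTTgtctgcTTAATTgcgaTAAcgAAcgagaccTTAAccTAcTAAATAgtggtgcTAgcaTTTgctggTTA
813–952, chrXII:456781-456920: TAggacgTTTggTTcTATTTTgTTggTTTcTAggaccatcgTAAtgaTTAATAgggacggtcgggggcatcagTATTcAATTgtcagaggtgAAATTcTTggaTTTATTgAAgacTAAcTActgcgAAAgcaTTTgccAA
1400–1551, chrXII:456182-456333: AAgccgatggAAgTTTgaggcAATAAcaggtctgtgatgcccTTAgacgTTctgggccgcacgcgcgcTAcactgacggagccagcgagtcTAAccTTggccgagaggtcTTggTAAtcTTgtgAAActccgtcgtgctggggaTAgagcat
1262–1444, chrXII:456289-456471: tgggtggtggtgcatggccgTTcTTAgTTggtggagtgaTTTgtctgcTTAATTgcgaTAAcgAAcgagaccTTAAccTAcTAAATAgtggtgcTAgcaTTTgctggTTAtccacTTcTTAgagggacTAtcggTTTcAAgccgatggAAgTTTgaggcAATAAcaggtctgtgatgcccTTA
1346–1444, chrXII:456289-456387: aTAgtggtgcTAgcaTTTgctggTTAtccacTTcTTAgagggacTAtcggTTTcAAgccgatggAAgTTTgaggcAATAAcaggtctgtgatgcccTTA
421–592, chrXII:457141-457312: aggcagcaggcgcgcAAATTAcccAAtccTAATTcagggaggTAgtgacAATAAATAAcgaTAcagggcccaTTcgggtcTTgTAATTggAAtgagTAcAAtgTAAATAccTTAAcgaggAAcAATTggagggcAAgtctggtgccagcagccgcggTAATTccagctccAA
1560–1676, chrXII:456057-456173: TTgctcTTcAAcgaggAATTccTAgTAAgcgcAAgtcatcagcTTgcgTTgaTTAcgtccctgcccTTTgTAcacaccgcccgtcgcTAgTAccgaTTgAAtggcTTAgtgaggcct

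Reads of the 6 lists summed to between 851697 and 2073823 per run. The 301 fragments took 2.58% of the reads of NucLib, 2.36% of section A (2.37% and 2.35% in its runs) and 3.81% of section B (3.79% and 3.82%). The share in section B was therefore above that in section A and in the library in both runs. The first gene copy was given between 49.8% (section A) and 50.3% (NucLib) of these reads. Every base of the gene was covered by at least 1 fragment, and base 1519 was covered by 63. Lengths ran from 83 to 214 bp with a median of 141 bp. There were 115 fragments under 130 bp, 124 from 130 to under 160 bp and 62 of 160 bp or more. The fragments began and ended mostly at A or T, which made up 84.2% of their outermost bases against 55.2% of the gene's bases, and 84.8% of the outermost bases of fragments outside the rDNA. Micrococcal nuclease is known to cut next to A and T. The median GC content of the fragments was 49.1%, above the 44.8% of the whole gene and the 42.9% of fragments outside the rDNA.

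The 18S fragments were not spread evenly over the gene or over the sections. In the 12 windows of 150 bases into which the gene was divided, the number of fragments ran from 4 (bases 1651 to 1800) to 67 (bases 1351 to 1500), with 53 in bases 1501 to 1650 and 40 in bases 301 to 450. Window 3 (bases 301 to 450) alone held 40.3% of the members' reads in section B and 17.3% of those in section A. Windows 10 and 11 together were the main source of section A reads, with 35.7% and 23.2%, and held 22.6% and 9.51% of those in section B.

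**Figure D1:**
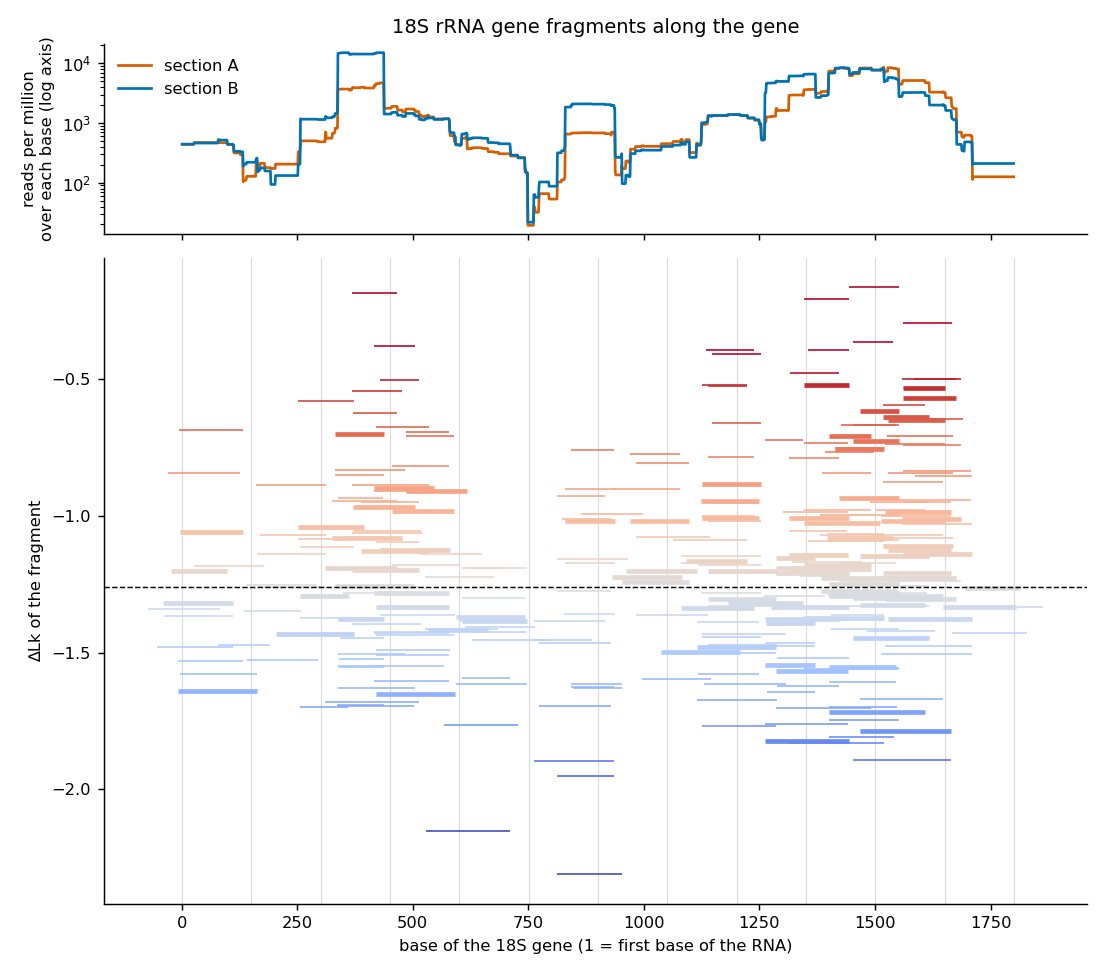
Upper panel: relative abundance (RPM, reads scaled to the total of the section's lists) of section A (orange) and section B (blue) over each base of the 18S gene, on a log axis. Lower panel: each of the 301 fragments as a line from its first to its last base at its ∆Lk, coloured from blue (more negative) to red, thick where it had 100 reads or more in both sections, with a dashed line at −1.26. Section B stands above section A over bases 338 to 437 and the lowest fragment, 813–952, lies at −2.31.

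One fragment made up much of the section B signal. Fragment 338–437 was read 3608 and 7412 times in the runs of NucLib, 5878 and 4706 times in section A, and 19523 and 24347 times in section B. It was thus 0.424% of the library, 0.281% of section A and 1.31% of section B, and 34.4% of all member reads in section B against 11.9% in section A. Its log2 A/B, the log2 ratio of the fragment's share of section A to its share of section B, was −2.22 in run 1 and −2.24 in run 2, and the sections differed (edgeR quasi-likelihood test with Benjamini-Hochberg adjustment, adjusted p = 4.62e-92). Short inserts run faster in this gel and are as a rule more abundant in section B. Against the 24 fragments of 100 bp, itself included, 338–437 was still lower, with a log2 difference of −1.19 (same test with an offset for length, adjusted p = 1.26e-66).

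Around it lay 15 fragments that shared its first or its last base, 4 and 11 respectively, each with at most 1 in 50 of its reads. They had 13 to 117 reads in section A (median 26) and 32 to 470 in section B (median 166). Most were under 130 bp. Outside the rDNA, 62.6% of fragments that short were higher in B and 3.05% in A. Against their length peers, 30.4% of those were below and 19.2% above. Of the 15, 13 were more abundant in section B and 0 in section A by the test of the sections. Of 13 that could be compared with their own length, 7 were lower and 1 was higher. The one that was higher begins 7 bases before 338–437. That fragment, 331–437, had 72 and 45 reads in section A and 78 and 88 in section B, and was 0.88 higher than others of 107 bp on the log2 scale, used for all such differences below (adjusted p = 0.000178). The fragment 5 bp shorter, 336–437, had 14 and 11 reads in section A and 89 and 156 in section B, and differed by −2.14 from others of 102 bp (adjusted p = 1.90e-10). Thus 2 fragments that share their last base and differ by 5 bp at the other end lay on opposite sides of their length peers, with raw log2 A/B of −0.68 and −3.47.

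Over all members, the test of section A against section B called 68 of 301 fragments (22.6%) more abundant in A, where 24.7% of all fragments tested were called, and 90 (29.9%) more abundant in B, where 21.5% of all were called. The split depends on the scale of the libraries. With totals that leave out the insert with most reads of the series, which lies outside the rDNA, 95 were higher in A and 75 in B, against 32.9% and 17.5% of all fragments. DESeq2 called 28 of 296 in A and 60 in B, against 11.9% and 17.2% of all. The calls differed by length class. Under 130 bp, 2 fragments were higher in A and 71 of 115 in B. From 130 to under 160 bp, 57 of 124 were higher in A and 8 in B. At 160 bp and over the counts were 9 and 11 of 62. Outside the rDNA, 3.05% of fragments under 130 bp were higher in A and 62.6% in B, so the short 18S fragments, at 1.74% and 61.7%, had shares near those. From 130 to under 160 bp the shares outside the rDNA were 37.6% and 8.23%, against 46.0% and 6.45% of 18S fragments. At 160 bp and over they were 13% and 17.7%, against 14.5% and 17.7%.

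**Figure D2:**
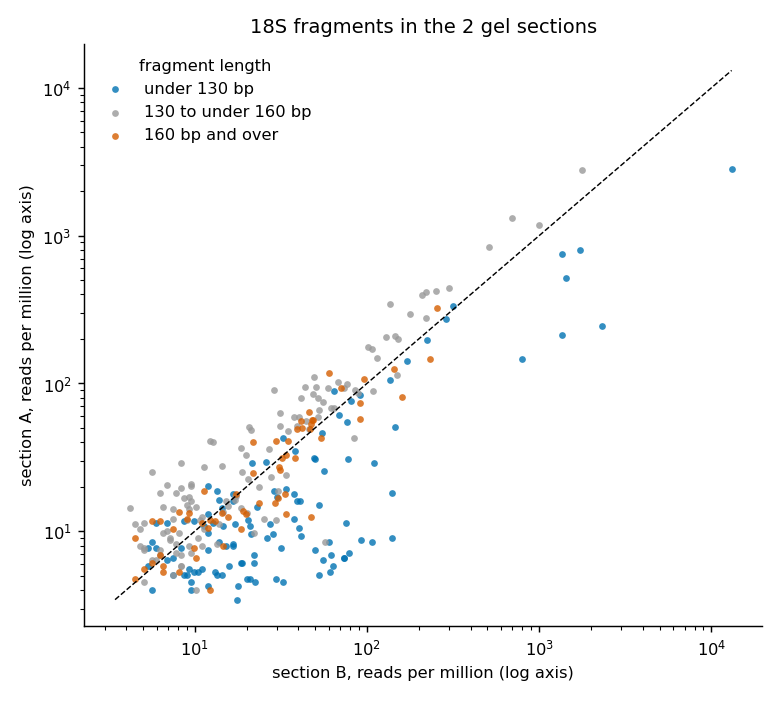
RPM of each 18S fragment in section B (horizontal) and section A (vertical), both on log axes, with the runs summed, coloured by length class. The dashed line marks equal shares. The point at the far right is 338–437, and short fragments (blue) lie mostly below the line.

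The comparison with fragments of the same length takes length into account and depends little on the scale of the libraries. It could be made for 271 members, in lengths with at least 20 fragments, and 30 had too few. Of the 271, 78 (28.8%) were more abundant in section A than their length peers, where 19.1% of all 8653 fragments tested were called, and 40 (14.8%) were less abundant, where 14.3% of all were. For fragments outside the rDNA the shares were 17.9% and 15.8%. For 25S fragments they were 20.7% and 10.7%, and for other rDNA fragments 25.4% and 2.69%. Only the 18S copies were folded, and copies of other rDNA sequences stayed separate with their reads split. Median reads in sections A and B were 57 and 72 for all 18S fragments. They were 40 and 40 for 25S and 40 and 32 for other rDNA fragments. Calls depend on reads, so these shares are not at equal depth. The 18S share below its length peers was near the background, and a share above them over 19.1% was also seen in the rest of the rDNA. Whether 18S fragments differ from others was not tested, since fragments that overlap are not independent. By length, 31 of 101 members under 130 bp were higher and 22 lower, 38 of 124 from 130 to under 160 bp were higher and 12 lower, and 9 of 46 of 160 bp or more were higher and 6 lower. The shares outside the rDNA were 19.2% and 30.4%, 18.7% and 11.4%, and 12% and 10.9% in these classes.

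In units of ∆Lk, on a scale set so that fragments of 144 bp centre on −1.26, the 18S fragments had a median of −1.20, with quartiles at −1.42 and −0.952 and a range from −2.31 to −0.162. Their mean was −1.18 (SD 0.361 over 301 fragments), and 169 of them (56.1%) lay above −1.26. The median of all 9036 fragments was −1.25 with 51.9% above −1.26. It was −1.25 for 1167 fragments of the 25S gene and −1.18 for 630 other rDNA fragments, with their copies not folded. For 6938 fragments elsewhere it was −1.25. Medians of 18S fragments were −0.948 under 130 bp, −1.22 from 130 to under 160 bp and −1.43 at 160 bp and over, against −1.10, −1.25 and −1.41 outside the rDNA. The fall with length is built into ∆Lk by its correction of 0.007 per bp, and it is not a measurement of these fragments. Under 130 bp the 18S fragments were also shorter, with a median of 107 bp against 114 bp.

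The precision of these values was limited by reads. The counting error of ∆Lk had a median of 0.0962 over the members and 0.0451 over the 93 deeper fragments. The median difference of ∆Lk between the runs was 0.0977 over all 301 and 0.0549 over the 93, and between the gene copies it was 0.0976 over the 241 with both past the minimum. Runs 1 and 2 put 257 of 301 fragments, and 81 of the 93, on one side of −1.26. Counting errors cover the sampling of reads only: the reads come from PCR without molecular identifiers, and the number of transformed cells behind each fragment was not analysed here. Members just inside the minimum, with 10 to 12 reads in a section, numbered 94 of the 542, and 78 listed fragments with 8 or 9 reads in a section and at least 8 in the other lay just outside.

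Along the gene, windows of low and of high ∆Lk alternated. The lowest medians were in window 5 (bases 601 to 750, −1.41, 14 fragments), window 9 (bases 1201 to 1350, −1.41, 20 fragments) and window 6 (bases 751 to 900, −1.38, 19 fragments). The highest were in window 7 (bases 901 to 1050, −1.01, 8 fragments), window 11 (bases 1501 to 1650, −1.03, 53 fragments) and window 8 (bases 1051 to 1200, 26 fragments, 17 of them above −1.26). These medians pool lengths. From 130 to under 160 bp they were −1.20 in window 7, −1.07 in window 11 and −1.36 in window 8. The place of window 8 rested on its 11 fragments under 130 bp, with a median of −0.881. All 8 fragments of window 7 lay above −1.26, whereas 2 of 14 in window 5, 4 of 20 in window 9 and 0 of 4 in window 12 did. In the remaining windows between 36.8% and 71.7% did. Under the 21 alternatives run for the windows, those numbered 4, 5, 7, 9 and 11 kept their side of −1.26, and the other 7 changed side under at least 1. The order of neighbouring windows was not tested, since fragments of a window overlap.

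Calls against fragments of the same length leaned to one side in several windows. In window 11, 25 of 44 fragments were above their length peers and 0 below, and in window 10 the counts were 18 and 5 of 58. In window 4 they were 10 and 2 of 26, and in window 8 they were 7 and 2 of 25. From 130 to under 160 bp, however, window 8 had 0 above and 2 below of 9. In window 6, by contrast, 0 of 18 were above and 8 below, in window 5 it was 0 and 3 of 13, and in window 9 it was 1 and 6 of 17. Window 3 held both, with 11 above and 10 below of 37. These counts stand against 19.1% above and 14.3% below over all fragments.

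**Figure D3:**
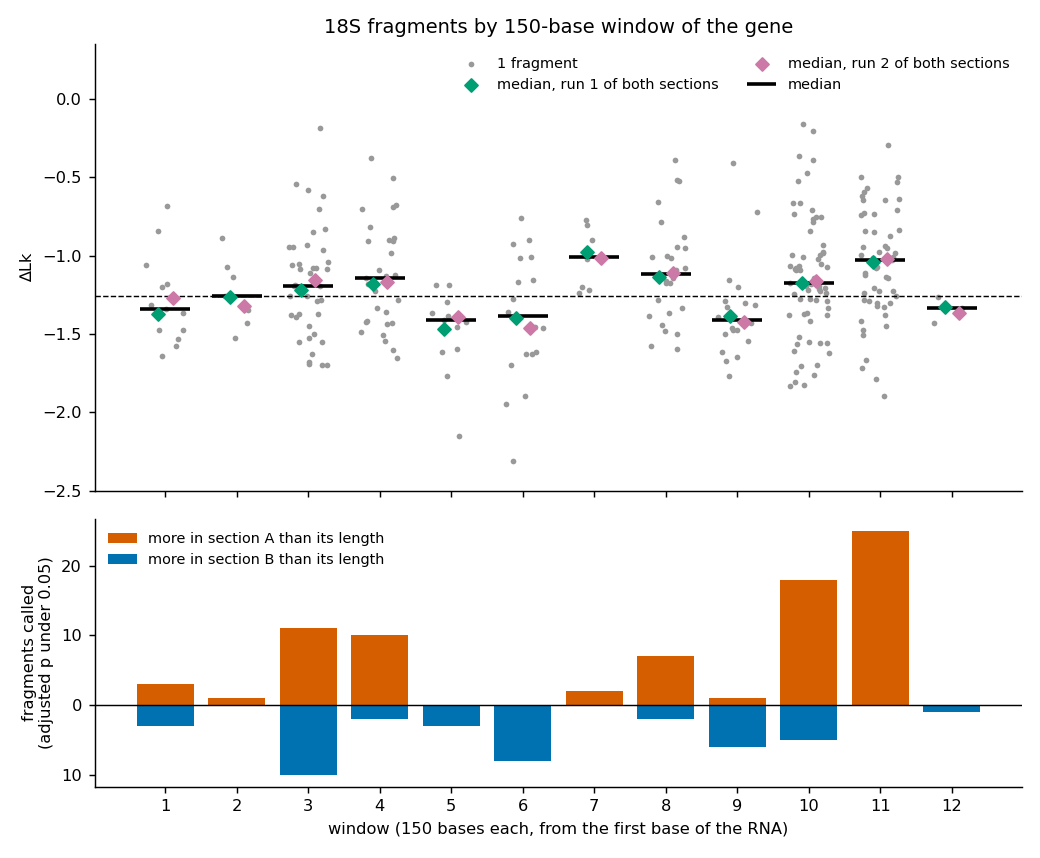
Upper panel: ∆Lk of each 18S fragment (grey) in 12 windows of 150 bases from the first base of the RNA, with the median over fragments (black bar) and the median in each run (diamonds) and a dashed line at −1.26. Lower panel: number of fragments per window called more abundant in section A (orange, upwards) or section B (blue, downwards) than fragments of the same length. Window 11 has 25 called upwards and 0 downwards, and window 6 has 0 and 8.

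The windows also differed in their short fragments. Under 130 bp, 5 of 12 tested fragments in window 6, 5 of 6 in window 9 and 9 of 20 in window 3 were below their length peers, with 0, 1 and 4 above. In windows 8, 10 and 11, 0 of 10, 0 of 24 and 0 of 14 were below, while 5, 8 and 9 were above. Outside the rDNA, 30.4% of tested fragments under 130 bp were below and 19.2% above. Median log2 A/B of short fragments was −2.03 in window 3, −1.86 in window 6 and −2.72 in window 9, and it was −0.50, −0.83 and −0.14 in windows 8, 10 and 11. The low counts of windows 3 and 9 rested on single sets with a shared end. In window 3, 7 of the 9 fragments below were 338–437 and fragments sharing an end with it, and of the 9 other tested short fragments 2 were below and 3 above. In window 9 all 5 below shared an end with 1262–1371, and the 1 other was above. Over the 115 short fragments, Spearman's rho of ∆Lk with the percentage of AA, TT and TA steps was −0.32 and with GC content 0.21, as a description across fragments that share bases and libraries. From 130 to under 160 bp these values were 0.02 and −0.03 over 124 fragments.

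The most-read fragment of each window gives values at higher depth, which did not always follow the window medians. In windows 1, 3, 4 and 6 its ∆Lk lay on the other side of −1.26 from the median. The medians there were −1.34, −1.19, −1.14 and −1.38, and the most-read fragments had −1.06, −1.38, −1.28 and −1.02. In window 1, fragment −3–132, which starts 4 bases before the RNA, had 322 and 235 reads in the runs of section A and 177 and 206 in section B. Its ∆Lk was −1.06 (counting SE 0.0352; −1.06 and −1.07 by run), and it was above others of 136 bp by 0.40 (adjusted p = 0.00209). In window 2, fragment 161–312 had 200 and 143 reads in section A and 46 and 50 in section B, with a ∆Lk of −0.885 (SE 0.0576), 1.19 above others of 152 bp (adjusted p = 1.51e-08). Both fragments of the 5′ end of the gene thus lay on the section A side. In window 4, fragment 417–579 had 671 and 542 reads against 379 and 475, and its ∆Lk was −1.28 (SE 0.0237). Window 5 was led by 606–748, with 162 and 180 reads against 130 and 155 and a ∆Lk of −1.38 (SE 0.0427; −1.49 and −1.29 by run). It differed by −0.35 from others of 143 bp (adjusted p = 0.0344). Of these 4 leading fragments, −3–132 lost its call without the first run of section A (0.31, adjusted p = 0.0798) or the second of section B (0.29, adjusted p = 0.112). It also lost it with a minimum of 20 reads (adjusted p = 0.0556) or 50 (adjusted p = 0.0905), and with length means over the study's list (0.21, adjusted p = 0.13). Fragment 606–748 lost it without the first run of section A (−0.14, adjusted p = 0.551) or of section B (−0.30, adjusted p = 0.149), and also with a minimum of 50 reads (adjusted p = 0.064) and with each sequence once (adjusted p = 0.0565), while with no minimum it stood at 0.22 (adjusted p = 0.319).

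In the middle of the gene the leading fragments differed in sign. Fragment 830–937 of window 6 had 1032 and 904 reads in section A and 2103 and 2657 in section B. Its log2 A/B was −1.47, 0.02 above others of 108 bp (adjusted p = 0.797), and its ∆Lk −1.02. It was called above its length peers with length means over the study's list (0.18, adjusted p = 0.000531), with each sequence once (0.14, adjusted p = 0.0094) and with no minimum (0.17, adjusted p = 0.00745). The median of window 6, −1.38 over all its members, was −1.25 with a minimum of 20 reads per section and −0.926 with 50. A minimum holds for each section, so it also leaves out fragments that are abundant in section B but scarce in section A. It therefore cannot show which fragments set the low median. Fragment 813–952 had 15 and 17 reads in section A and 81 and 111 in section B, and its ∆Lk of −2.31 (SE 0.0866; −2.37 and −2.24 by run) was the lowest of all members, with a log2 difference of −3.06 from others of 140 bp (adjusted p = 1.52e-18). Fragment 813–935, with the same first base, had 17 and 15 reads against 150 and 206 and a ∆Lk of −1.95. Fragment 813–966, 14 bp longer than 813–952, had 28 and 25 reads in section A and only 11 and 14 in section B, with a ∆Lk of −1.16. The fragments named here that begin at base 813 thus ran from −2.31 to −1.16 in ∆Lk.

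Windows 7 and 8 were led by 971–1098 and 1125–1253. The first had 287 and 251 reads in section A and 246 and 329 in section B, with a ∆Lk of −1.02 (SE 0.0319), 0.37 above others of 128 bp (adjusted p = 0.00194). The second had 667 and 586 reads against 459 and 597, with a ∆Lk of −0.881 (SE 0.0222), 0.76 above others of 129 bp (adjusted p = 2.21e-15). Next to them, fragment 1262–1371 of window 9 had 477 and 450 reads in section A and 3499 and 4263 in section B. Its log2 A/B was −3.36 and −3.11 by run, its ∆Lk −1.55 (SE 0.015), and it differed by −1.57 from others of 110 bp (adjusted p = 2.47e-46). Fragment 1265–1371, 3 bp shorter, had 430 and 368 reads against 1950 and 2607 and was also below its length peers (adjusted p = 7.07e-32). All 5 tested fragments that end at base 1371 and begin at 1262, 1263, 1264, 1265 or 1267 were called below their length peers.

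At the 3′ end, fragment 1400–1551 had the most section A reads after 338–437, with 5843 and 4696 against 2554 and 3403 in section B. Its ∆Lk of −1.25 (SE 0.00854) was close to the library mean, and it was 0.19 above others of 152 bp (adjusted p = 2.86e-07). Fragment 1467–1617 of window 11 had 2698 and 2255 reads against 973 and 1345, with a ∆Lk of −1.15 (SE 0.0131), 0.45 above others of 151 bp (adjusted p = 8.75e-15). Window 12 was led by 1694–1814, which ends after the gene. It had 105 and 86 reads in section A and 220 and 265 in section B, and differed by −0.43 from others of 121 bp (adjusted p = 0.00588), with a ∆Lk of −1.26. Without the second run of section A (−0.33, adjusted p = 0.122) or the first of section B (−0.35, adjusted p = 0.0805) this call was lost, as it was with a minimum of 20 reads (adjusted p = 0.166) and with no minimum (adjusted p = 0.254). Of the 12 leading fragments, those of windows 3, 5, 9 and 12 were called below their length peers. That of window 6 was not called, and the other 7 were called above. Over all fragments tested, 19.1% were called above and 14.3% below. The leading fragments were picked by reads, and more reads make a call likelier, so their tally cannot be set against those shares.

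Among the 93 deeper fragments, the 4 lowest ∆Lk were those of long fragments and the 4 highest those of short ones. The 4 lowest were 1262–1444 (183 bp, −1.82, SE 0.0373), 1467–1665 (199 bp, −1.78), 1400–1608 (209 bp, −1.72) and 421–592 (172 bp, −1.65). The 4 highest were 1346–1444 (99 bp, −0.521, SE 0.0495), 1560–1652 (93 bp, −0.530), 1560–1676 (117 bp, −0.567) and 1467–1551 (85 bp, −0.617). Several of these lengths were rare in the library, and fragment 1400–1608 was the only one of its length, so that its value is the length correction alone. For 1262–1444, 1467–1665, 1560–1652 and 1467–1551 there were 16, 5, 15 and 11 fragments of the same length, themselves included. The 3 with enough length peers were called by the test against length. That test uses the same reads and the same comparison by length as the ∆Lk by which they were picked, so it is no separate support. Fragment 421–592, with 294 and 254 reads in section A and 341 and 441 in section B, differed by −0.53 from others of 172 bp (adjusted p = 1.68e-06). Fragment 1346–1444, with 142 and 90 reads against 103 and 128, was 1.21 above others of 99 bp (adjusted p = 2.36e-10), and 1560–1676, with 177 and 136 reads against 131 and 173, was 1.44 above others of 117 bp (adjusted p = 3.72e-16).

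Many fragments shared an end. The most frequent first base was 1400, with 10 fragments, and the most frequent last bases were 1551 with 14, 437 with 12 and 1519 with 11. Fragments that begin at 1560, of which there were 8, had ∆Lk from −1.14 to −0.294, so that all 8 lay above −1.26. Among them 1560–1666 had 58 and 51 reads in section A and 30 and 42 in section B and was 1.99 above others of 107 bp (adjusted p = 3.43e-11), while 1560–1665, 1 bp shorter, had 12 and 7 against 21 and 24 and was 0.16 above others of 106 bp (adjusted p = 0.808). Fragments that end at 1551 ran from −1.74 to −0.162. In this set the fragments of 85 to 129 bp included 1423–1551, with 575 and 456 reads against 383 and 579 and 0.62 above its length peers (adjusted p = 3.62e-10), and 1452–1551, with 226 and 171 against 212 and 246 and 0.65 above (adjusted p = 1.26e-06).

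**Figure D4:**
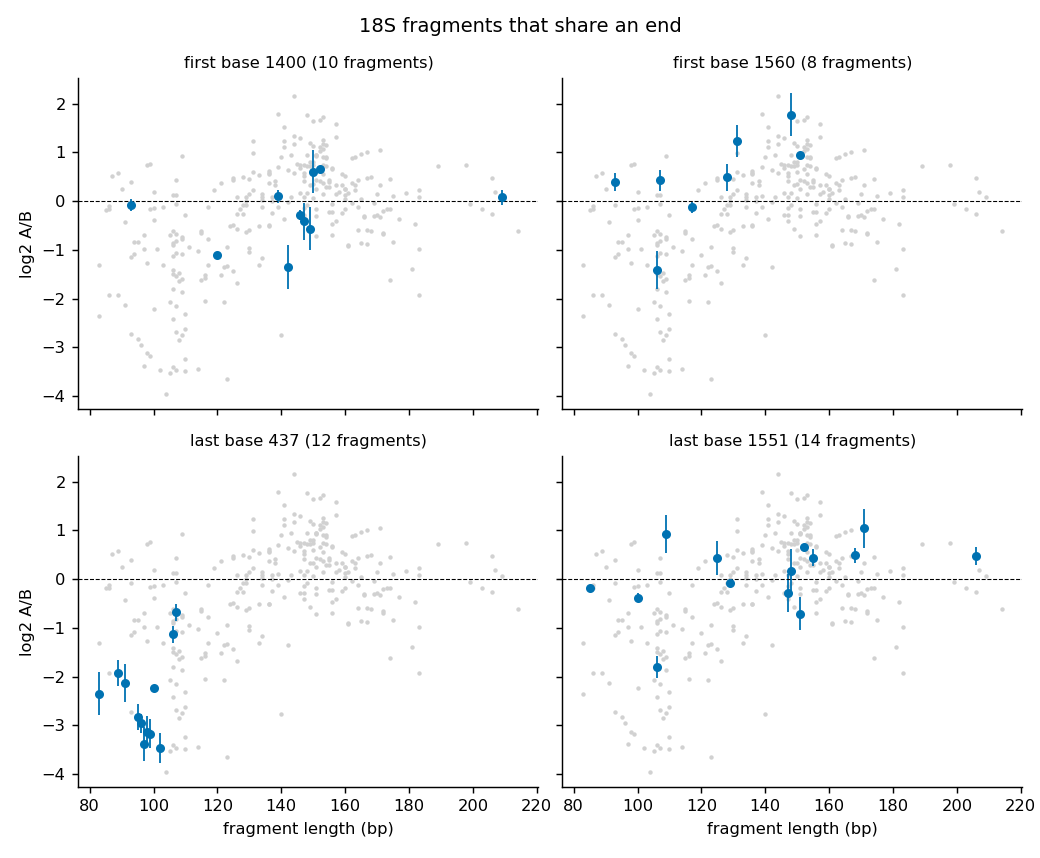
Log2 A/B against length for fragments that share a first base (1400, 1560) or a last base (437, 1551), in blue with bars of 1 counting standard error, over all 301 18S fragments (grey). Fragments ending at base 437 sit at −3.47 to −0.68, and of the 8 beginning at base 1560, 6 sit above 0.

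Fragments nested within one another could differ in their place against their length peers. Fragment 1400–1519 had 1627 and 1379 reads in section A and 2456 and 3290 in section B, a log2 A/B of −1.11, 0.07 above its 120 bp peers (adjusted p = 0.186). Fragment 1414–1519, which lacks its first 14 bases, had 1568 and 1259 reads against 2041 and 2527 and was 0.72 above its length peers (adjusted p = 2.40e-26), with a ∆Lk of −0.753 against −1.08. The length means of these fragments differ and enter both comparisons, and ∆Lk also includes the length correction. Over pairs of the 93 deeper fragments, the absolute difference of ∆Lk had a median of 0.347 for 121 pairs that share an end, 0.115 for 423 pairs within 5 bp in length with no base in common, and 0.108 for 45 pairs within 5 bp that share at least 100 bases. Pairs that share an end differ in length, and the length correction is part of their difference.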

How the data were processed

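Adaptors were removed with Cutadapt and paired reads mapped with Bowtie 1.1.2 to build R64 by the authors, who then collapsed identical fragments. Their processing notes also name SAMtools, Picard and BWA. The authors deposited, for every run, a list of fragments with the raw count of reads of each, without normalization. All 6 lists stop after 65536 lines sorted from high to low count, and totals are therefore lower bounds. Deposited starts count from 0 and are printed here from 1. No step of the alignment could tell the 18S copies apart.

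Reads of the copies were summed for each gene coordinate, with the partner's listed reads included where only 1 copy passed the minimum. edgeR 4.0.16 (glmQLFit, glmQLFTest) was run on 9036 fragments and the 4 section libraries, with list totals as library sizes and Benjamini-Hochberg adjustment at 0.05. A second fit took as offset the mean log2 A/B of the fragments of the same length, and covered 8653. DESeq2 1.42.0 was an alternative. ∆Lk followed the study's steps: the share A/(A+B) of relative abundances as a Z-score, times 0.85, minus the mean of the same length, plus 0.007 for each bp below 144 bp, plus −1.26. The written plan had the opposite sign for the 0.007, and that form was run as an added alternative. Counting errors of ∆Lk came from the reads by the delta method. A fragment was called minor when another with the same start or end had 50 or more times its reads.

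The members, windows, comparisons and naming rule were chosen with earlier results of these data known. The rule named the most-read fragment of each window of 150 bases, the 4 highest and 4 lowest ∆Lk among fragments of at least 100 reads per section, and the most abundant fragment with those sharing an end with it. Fragments 336–437 and 331–437 fall under it, and others are named as examples, after their values were seen. According to the methods the 2 runs came from 2 flow cell lanes. Whether equal numbers of different samples shared a lane is not stated. Deviations of equally numbered runs from their sample means correlated at 0.0987 (A and B), 0.0983 (A and NucLib) and 0.0939 (B and NucLib) over 4875 fragments. By the methods the runs of a sample are technical replicates of 1 DNA sample. They differed by about sampling noise, with a mean chi-square of 1.04 to 1.16 over members. Scripts were tested on simulated data. Other tools were R 4.3.3, limma 3.58.1, Python 3.11.15, numpy 2.4.6, pandas 2.3.3, scipy 1.17.1 and matplotlib 3.10.9. Alternatives were other normalizations, read minimums, ways of folding, single runs, a run block, all 6 libraries, other length means and corrections, and leaving out minor fragments.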

Additional observations from a re-analysis of the deposited data

How the results depend on the processing

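The counts of calls, section A against section B (68 and 90) and against fragments of the same length (78 and 40), stayed within 1.5 times of these values under TMM, without the most abundant insert of the series, with other folding, on all 6 libraries and with other length means. With the replicate block, which pairs runs by number, they were 70 and 93, and 82 and 40, and no count moved by over 1.5 times. Without 1 run of a section they ranged from 49 to 61 and 73 to 86, and from 53 to 68 and 32 to 37. DESeq2 called 28 of 296 higher in A and 60 in B (11.9% and 17.2% of all fragments). Minimums change which fragments are tested. With 20 reads, 50 and 51 of 174 were called by section (31.7% and 20.7% of all), and 50 and 20 of 141 by length (20.7% and 14.7% of all). With 50 reads, these were 39 and 23 of 97 (42.3% and 20.6%), and 29 and 8 of 74 (21.8% and 14.4%). With no minimum, they were 76 and 245 of 1206 (7.2% and 12.2%), and 147 and 88 of 1130 (10.4% and 5.33%).

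Moves of ∆Lk are judged against the spread of its 2 runs, which was small. The median (−1.20) was −1.23 with 20 reads, −1.25 with 50, −1.22 with no minimum, −1.23 in run 1, −1.18 with length means outside the rDNA, −1.23 with length medians, −1.29 without subtraction of the length mean and −1.25 weighted by reads. Without 1 run it ranged from −1.23 to −1.20. The share above −1.26 (56.1%) was 55.2% with 20 reads, 55.7% with 50, 52.5% with no minimum, 55.5% with passing copies only, and 59.2%, 57.8% and 55.1% with length means outside the rDNA, over distinct sequences and over the study's list. It was 53.5% with length medians, 47.5% without subtraction of the length mean, 58.8% without the 0.007 per bp, 54.8% with its sign turned (added after the data were seen), 58.6% without minor fragments, 57.5% without 338–437 and the fragments sharing an end with it (also added), and 51.6% weighted by reads. Without 1 run it ranged from 55.1% to 57.5%. The mean log2 A/B (−0.30) was −0.0904 without the most abundant insert, −0.16 with 20 reads, 0.029 with 50, −0.99 with no minimum, −0.36 with the minimum after folding, −0.18 without minor fragments, −0.20 without 338–437 and the fragments sharing an end with it, and −0.82 weighted by reads. Without 1 run it ranged from −0.32 to −0.27. The cause of these moves was not tested.

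Of 409 tests of named fragments against their length under alternatives, 385 kept their status as called or not called, 16 lost a call, 7 gained one and 1 reversed. The reversed one was 606–748, which was 0.22 above its length peers with no minimum. A change of direction was counted only where the fragment was called in the main or the alternative setting. Of 252 window medians, 23 lay on the other side of −1.26 from the main value.

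Depth limits these values: the median section A or B count was under 50 reads in windows 2, 3, 5 and 6. The gel was run once, the lists end at a fixed length, and fragments scarce in either section are left out, so that the most extreme partitions are not measured. Lengths with few fragments give a ∆Lk set mainly by the length correction. Reads of transcribed and silent rDNA units, and of different units, cannot be told apart.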
